A study of Danio rerio with 6 samples.

Results

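Keratins, the proteins that form the intermediate filaments of epithelial cells, were followed in RNA of intact zebrafish larvae collected at 5 days post fertilization (dpf). Members were the entries of the deposited gene table whose gene name begins with krt or cyt1 and whose mean normalised count over the libraries is above 0. This gave 31 entries with 24 symbols, of 23956 entries with a mean above 0. Of these, 30 entries with 23 symbols are keratins, and the other is krtcap2, which encodes a keratinocyte associated protein that belongs to the oligosaccharyltransferase complex and forms no filament. The members were chosen by name and not by their values.

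The libraries were 3 of tlr2-/- larvae and 3 of tlr2+/+ larvae, all unchallenged. The tlr2-/- fish carry the sa19423 allele, which was made by ENU mutagenesis and outcrossed repeatedly to the ABTL wild type strain, and the tlr2+/+ fish are the wild type controls. The larvae came from single crosses of separate parents of each genotype, so the mutation cannot be told apart from other alleles that the parents of a genotype share. Both tlr2 entries, a receptor of innate immunity, had 0 reads in all libraries, and the genotype labels could not be checked on tlr2 expression. The libraries held 17854737 to 24088390 reads in tlr2-/- and 19828367 to 33403126 reads in tlr2+/+. The number of genes with 10 or more reads was 17126, 15535 and 15917 in tlr2-/- libraries 1, 2 and 3, against 12944, 11906 and 19194 in tlr2+/+ libraries 1, 2 and 3, so tlr2+/+ libraries 1 and 2 stood apart with fewer genes.

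Keratins fall into acidic type I and basic type II proteins, and a filament needs one of each. In the larval zebrafish skin an outer layer of superficial cells, the periderm, covers a layer of basal keratinocytes that sits on the basement membrane. The krt4 promoter is widely used to label the superficial layer and that of krtt1c19e the basal layer. The cyt1 gene was named for a type I cytokeratin of the enveloping layer, which becomes the periderm. krt8 and krt18 are the keratin pair of simple epithelia in vertebrates, and their zebrafish homologues are also used in the notochord and gut.

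Markers of the skin layers that are not keratins were read beside them. Of 18 superficial markers joined to reads, 17 averaged at least 1 CPM (read counts brought to a common library size and composition), and of 14 basal markers 11 did. At least 1 CPM in every library was reached by 11 superficial and 7 basal markers. The superficial marker icn had 66.4, 175 and 79.5 CPM in tlr2-/- libraries and 157, 64.1 and 43.2 CPM in tlr2+/+ libraries. The basal marker tp63 encodes the transcription factor of basal keratinocytes. Summed over its entries, it had 15.2, 17.5 and 9.09 CPM in tlr2-/- libraries and 22.9, 20.99 and 17.6 CPM in tlr2+/+ libraries. In this sum the genotypes did not overlap (background 6.4% of summed symbols lower), though 17.5 and 17.6 CPM nearly met. The entry ENSDARG00000044356 alone had 14.5, 17.5 and 9.09 CPM against 22.9, 20.99 and 16.7 CPM, and the genotypes overlapped. Over the basal list, 6 log2 fold changes of tlr2-/- over tlr2+/+ were below 0 and 7 above 0. Basal markers were missing most often from tlr2+/+ library 1. Of the 14, 1, 3 and 1 were at 0 in tlr2-/- libraries 1, 2 and 3, against 5, 2 and 0 in tlr2+/+ libraries 1, 2 and 3. The 5 at 0 in tlr2+/+ library 1, where a count of 0 allows up to 0.1 CPM for counting error only, were the integrins itgb4, itga6b and itga3b, and frem2a and fbln1. Such zeros were not limited to basal markers. Of 18 superficial markers, 0, 1 and 0 were at 0 in tlr2-/- libraries and 2, 2 and 0 in tlr2+/+ libraries. Of 14 ionocyte and mucous cell markers, 0 were at 0 in each tlr2-/- library, and 3, 4 and 0 in tlr2+/+ libraries. The intestine and liver lists had at most 1 at 0 in any library. The libraries hold RNA of all other larval tissues too. All 11 intestine, 13 liver and 8 notochord markers joined to reads averaged at least 1 CPM. The presence of skin markers therefore does not show which tissue the keratin reads came from. In RNA of whole larvae, fewer cells of a type and less RNA per cell cannot be told apart.

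Of the 31 entries, 28 were joined to transcript reads. The other 3 had reads in a single library. krt95 had 38 reads in tlr2+/+ library 3, the krt18a.1 entry ENSDARG00000109528 had 239 reads in tlr2+/+ library 1, and the krt18a.2 entry ENSDARG00000058332 had 1 read in tlr2-/- library 1. The 27 keratin entries joined belong to 22 symbols, and 5 symbols (krt4, krt5, krt8, krt15 and krt18b) have 2 joined entries each. Entries of a symbol carry the same gene name under different identifiers, and how reads that could come from several of them were divided was not measured here. Values of single entries of these symbols are therefore given as uncertain, and for levels the entries of a symbol were summed.

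Keratin mRNA was abundant in larvae of both genotypes, with mean levels of single genes between 0.249 and 1856 TPM. By mean TPM, a level scaled for transcript length and library size, over the 6 libraries, krtt1c19e led with 1856 TPM. It was followed by cyt1 with 1831, krt91 with 1531, krt4 with 1250.0, krt5 with 852 and cyt1l with 827 TPM. These 6 symbols held 86.8% of keratin TPM, and they were the first 6 in every library. The remaining members of the first 10 were krt17 with 385, krt92 with 275, krt8 with 176 and krt97 with 169 TPM. krt15, krt1-19d and krt18a.1 averaged 93.2, 54.7 and 50.3 TPM. krt94, krt1-c5, krt18b and krt96 averaged 14.3, 9.21, 7.52 and 2.91 TPM, and 5 symbols (krt222, krt93, krt18a.2, krt98 and krt99) averaged below 1 TPM, with up to 3.26 TPM in a single library.

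Several neighbours in this order could not be ranked. krtt1c19e exceeded cyt1 in 4 of 6 libraries, and cyt1 exceeded krt91 in 5 of 6. krt5 exceeded cyt1l in 2 of 6 libraries and krt8 exceeded krt97 in 3 of 6. By contrast, krt91 exceeded krt4, krt4 exceeded krt5, cyt1l exceeded krt17 and krt92 exceeded krt8 in all 6 libraries. Among all genes joined in a library, krtt1c19e ranked 120, 124 and 123 by TPM in tlr2-/- libraries 1, 2 and 3, against 101, 138 and 92 in tlr2+/+ libraries 1, 2 and 3.

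**Figure D1:**
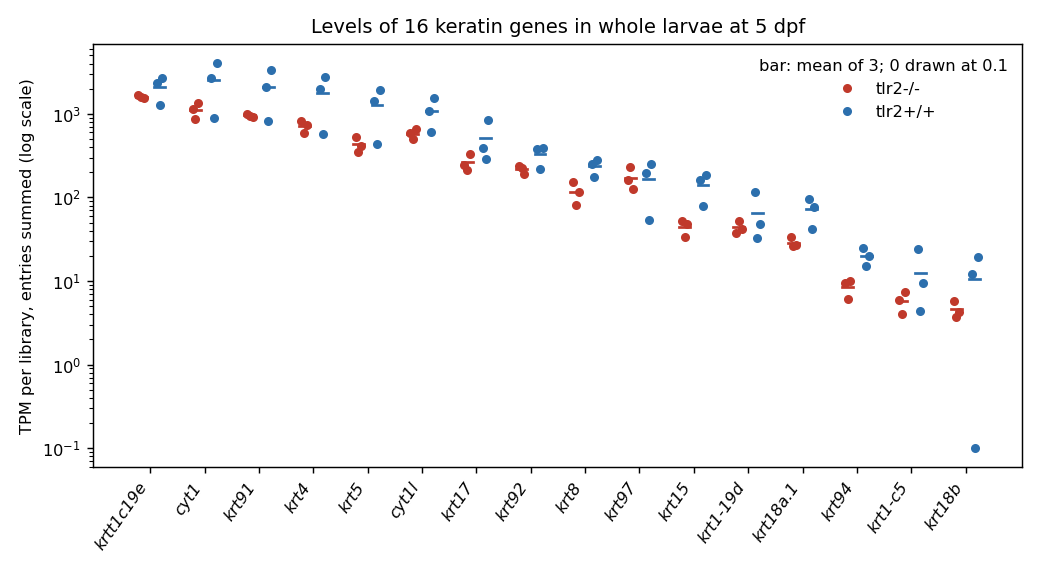
Level of 16 keratin symbols (x axis) in TPM on a log scale (y axis), entries of a symbol summed. Points are libraries, bars are means of 3, red is tlr2-/- and blue is tlr2+/+; a value of 0 is drawn at 0.1, which concerns krt18b in tlr2+/+ library 2. The tlr2-/- libraries lie close together for most symbols, and tlr2+/+ library 2 often lies among or below them.

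The summed keratin level differed most among wild type libraries. As a share of all TPM, the keratins took 0.6697, 0.573 and 0.655% in tlr2-/- libraries and 1.33, 0.552 and 1.85% in tlr2+/+ libraries. The means were 0.633 ± 0.0523% in tlr2-/- and 1.25 ± 0.655% in tlr2+/+ (SD, n = 3 each), a log2 ratio of -0.98. With krtcap2 included the log2 ratio was -0.97, and it was -0.57 without tlr2+/+ library 3 and -1.32 without tlr2+/+ library 2. The tlr2-/- libraries differed by at most 1.17-fold and the tlr2+/+ libraries by 3.36-fold. On the TPM scale, tlr2+/+ libraries 1 and 3 held 1.99 and 2.77 times the highest of the other 4 libraries. tlr2+/+ library 2 was the lowest of all, so the genotypes overlapped. Libraries 1 and 2 of tlr2+/+, which share a low number of detected genes, lay on opposite sides of the tlr2-/- libraries.

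**Figure D2:**
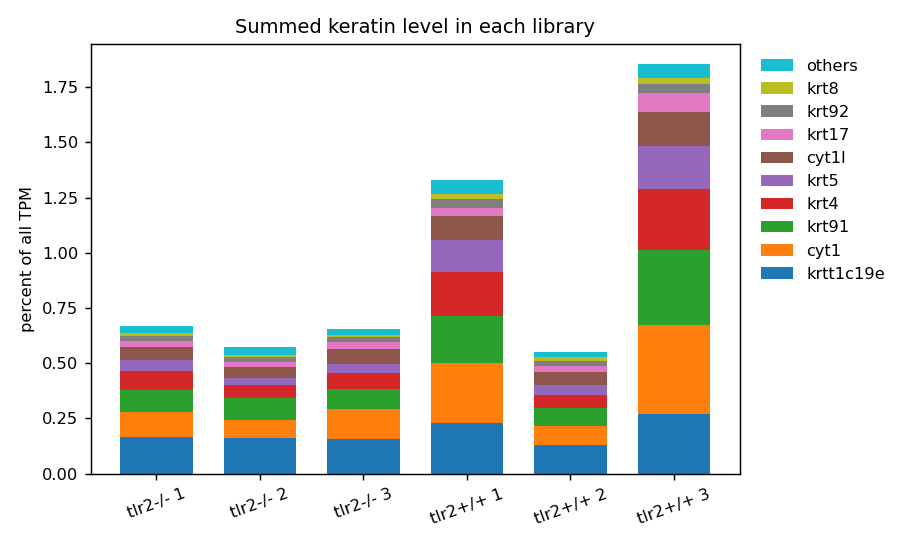
Percent of all TPM (y axis) held by keratins in each library (x axis), tlr2-/- to the left of tlr2+/+, with the 9 highest symbols stacked and the others summed. The bars of tlr2-/- lie between 0.573% and 0.670%, and those of tlr2+/+ at 1.33%, 0.552% and 1.85%. TPM lacks the composition scaling used for CPM.

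TPM is also shifted as a whole between the libraries. Over all genes tested, the median log2 fold change was 0.02 with TMM-scaled CPM but -0.22 on the log2(TPM + 1) scale, so a fold change on the TPM scale of keratins reads against that shift. TMM scaling of tlr2+/+ library 3 used a factor of 1.59, against 0.789 to 0.983 for the other 5 libraries. The keratin share was not computed with TMM factors. In CPM, the median deviation of the tested keratins from the wild type mean, in log2(CPM + 0.5), was -0.28, -0.41 and -0.23 in tlr2-/- libraries. It was 0.59, -0.73 and -0.04 in tlr2+/+ libraries 1, 2 and 3. In CPM, tlr2+/+ library 1 was thus the highest, and library 3 lay above the tlr2-/- libraries but far below library 1. The comparison of genotypes below therefore uses CPM with TMM factors.

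No keratin entry was called different between tlr2-/- and tlr2+/+ at an adjusted p under 0.05 in edgeR's quasi-likelihood test. The background was 1 of 16776 genes tested (0.00596%). Of the 26 entries tested, 19 had a log2 fold change below 0 and 7 above 0, and their median was -0.46. Over all genes 51.1% were above 0 and the median was 0.02. At an unadjusted p under 0.05, 3 entries were lower (background 1.99%) and 1 was higher (background 1.73%). These 4 were krtcap2 and an entry each of krt4 (ENSDARG00000115790), krt5 (ENSDARG00000112017) and krt8 (ENSDARG00000109279). The entries of krt5 and krt8 were the lower of their symbols, and that of krt4 was the higher by mean TPM. In CPM, 0 entries were lower in all tlr2-/- than in all tlr2+/+ libraries (background 6.2%), and 2 were higher (background 6.87%), namely krtcap2 and an entry of krt18b. Neither DESeq2's Wald test nor limma on log2 TPM called a keratin. The edgeR adjusted p was 0.9998 for each of the 26 entries. The biological coefficient of variation over all genes was 1.05, so the spread between libraries was large, and it was not equal in the genotypes. Over all genes tested, log2 CPM correlated (Pearson) by 0.811 to 0.848 among tlr2-/- libraries and by 0.70 to 0.733 among tlr2+/+ libraries. tlr2+/+ library 3 correlated by 0.798 to 0.846 with the tlr2-/- libraries, more than with the other tlr2+/+ libraries.

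Directions were also counted by level. Of the keratin entries tested, 18 averaged at least 10 TPM over the 6 libraries. Among these, 16 lay below 0 on the log2 scale and the median was -0.52. Of the 7 that averaged below 10 TPM over the 6 libraries, 3 lay below 0 and the median was 0.54. The krt15 entry ENSDARG00000111896, the krt8 entry ENSDARG00000109279 and krt94 averaged 7.387, 4.404 and 8.545 TPM in tlr2-/- libraries. They reached the cut only through their tlr2+/+ libraries and lay below 0, so these counts and medians depend partly on the cut. Directions over all genes of at least 10 TPM were not counted. Of the 18, 13 had their highest CPM in tlr2+/+ library 1, 3 in tlr2+/+ library 3 and 1 each in tlr2-/- library 2 and tlr2+/+ library 2. The library of the highest CPM was not counted over all genes of at least 10 TPM, so this is not shown to be particular to keratins. Without tlr2+/+ library 1 the median over the entries tested in that fit was 0.12, against 0.15 over all its genes. The negative median thus turned. The filter on low counts was rerun in each fit, so the entries need not be the same 26. With tlr2+/+ library 3 as the only wild type library, 1 keratin entry was called, krt4 ENSDARG00000115790 (log2 fold change -1.29, adjusted p = 0.0197 in edgeR), where 3.73% of all genes were called. The median over the keratin entries in that fit was -0.0041, against -0.0835 over all genes. On the log2(TPM + 1) and log2(TPM + 0.1) scales the keratin median was -0.80 and -0.82, against -0.22 and -0.17 over all genes.

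The basal keratinocyte gene krtt1c19e, the highest keratin, overlapped between genotypes. It had 3135, 3764 and 3249.6 CPM in tlr2-/- libraries 1, 2 and 3, against 4163, 2577 and 2548 CPM in tlr2+/+ libraries 1, 2 and 3. The wild type values enclosed the mutant ones, with a log2 fold change of 0.13 (SE 0.388). On the log2(TPM + 1) scale the sign was the other one, at -0.32, close to the shift of all genes on that scale.

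As a share of keratin TPM, krtt1c19e held 24.8, 27.8 and 23.9% in tlr2-/- libraries and 17.4, 23.4 and 14.6% in tlr2+/+ libraries. The genotypes did not overlap in this share, but the lowest mutant and the highest wild type share lay close together, at 23.9% and 23.4%. No background of non-overlap was taken for shares. The second highest symbol, cyt1, held 17.1, 14.98 and 20.6% in tlr2-/- libraries and 20.4, 16.04 and 21.8% in tlr2+/+ libraries. These shares were described without a test.

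krt5, in mammals the type II keratin of basal keratinocytes, has 2 joined entries. The main entry ENSDARG00000058371 had 1503, 1033 and 1352 CPM in tlr2-/- libraries and 1964, 1138 and 2566 CPM in tlr2+/+ libraries. It had a log2 fold change of -0.54 (SE 0.406), with the tlr2-/- values within or just under the wild type range. The entry ENSDARG00000112017 had 55.4, 185 and 21.1 CPM in tlr2-/- libraries and 1421, 136 and 256 CPM in tlr2+/+ libraries, with a log2 fold change of -2.796 (SE 1.101). Its wild type mean rested on library 1, which was far above the other 5 libraries, and without that library the log2 fold change was -1.04. Summed over both entries, krt5 had 1558, 1218 and 1373 CPM in tlr2-/- libraries and 3385, 1274 and 2822 CPM in tlr2+/+ libraries, a log2 fold change of -0.85 (SE 0.425). tlr2-/- library 1 lay above tlr2+/+ library 2, so the genotypes overlapped.

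krt15, whose mammalian homologue marks basal keratinocytes, was lower in every tlr2-/- library when its entries were summed. It had 93.6, 78.4 and 95.3 CPM in tlr2-/- libraries and 278, 142 and 172 CPM in tlr2+/+ libraries, a log2 fold change of -1.15 (SE 0.359). The genotypes did not overlap, as for 6.4% of all summed symbols in this direction. Its unadjusted p was 0.00698 in edgeR, and 2.07% of all summed symbols were lower at an unadjusted p under 0.05. Of the 20 keratin symbols tested in this form, 1 was lower without overlap and 1 lower at that p, in both cases krt15. The adjusted p over all summed symbols was 0.9997 in edgeR, and without each library in turn the log2 fold change ran between -1.33 and -0.72, the value without tlr2+/+ library 1. krt15 was named in this form after its values were seen. The entry ENSDARG00000036840 had 76.4, 78.4 and 74.8 CPM in tlr2-/- libraries and 217, 46.5 and 172 CPM in tlr2+/+ libraries, with wild type library 2 below the mutant libraries. The entry ENSDARG00000111896 had 17.2, 0 and 20.5 CPM in tlr2-/- libraries and 60.9, 95.6 and 0 CPM in tlr2+/+ libraries, with 0 reads in a library of each genotype, where a count of 0 allows up to 0.158 CPM in tlr2-/- library 2 and 0.0567 CPM in tlr2+/+ library 3 for counting error only.

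The superficial layer genes cyt1 and krt4 were lower on average but overlapped. The enveloping layer cytokeratin cyt1 had 2073, 1955 and 2723 CPM in tlr2-/- libraries and 4660.0, 1699 and 3746 CPM in tlr2+/+ libraries, with a log2 fold change of -0.58 (SE 0.438). Its wild type library 2 lay under every mutant library, and the other wild type libraries above them. cyt1l, a related cytokeratin, had 968, 1019.6 and 1205 CPM in tlr2-/- libraries and 1693, 1050.0 and 1281 CPM in tlr2+/+ libraries, with a log2 fold change of -0.33 (SE 0.365).

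krt4, a type II keratin, is split over entries of similar size. The entry ENSDARG00000115790 had 682, 536 and 758 CPM in tlr2-/- libraries and 1604, 642 and 1807 CPM in tlr2+/+ libraries, with a log2 fold change of -1.04 (SE 0.432). Wild type library 2 overlapped the mutant libraries here, and the other wild type libraries lay above all of them. The log2 fold change of this entry was -0.77 without tlr2+/+ library 1. It ran between -1.38 and -0.76 when each library was left out in turn. The entry ENSDARG00000017624 had 1444, 1422 and 1254 CPM in tlr2-/- libraries and 3116, 821 and 1246 CPM in tlr2+/+ libraries, with a log2 fold change of -0.33 (SE 0.476), and without tlr2+/+ library 1 its log2 fold change was 0.52. Summed, krt4 had 2126, 1958 and 2012 CPM in tlr2-/- libraries and 4721, 1463 and 3053 CPM in tlr2+/+ libraries, a log2 fold change of -0.60 (SE 0.446).

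krt91, krt17 and krt92, which neighbour cyt1 in the genome, overlapped between genotypes too. krt91 had 1928, 2308 and 1979 CPM in tlr2-/- libraries and 3868, 1658 and 3242 CPM in tlr2+/+ libraries, with a log2 fold change of -0.497 (SE 0.412). Its tlr2+/+ libraries lay on both sides of the tlr2-/- libraries. krt17, in mammals a keratin of injured skin, had 412, 456 and 635 CPM in tlr2-/- libraries and 627, 517 and 748 CPM in tlr2+/+ libraries, with a log2 fold change of -0.33 (SE 0.358). krt92 had 390.2, 483 and 362 CPM in tlr2-/- libraries and 611, 390.0 and 331 CPM in tlr2+/+ libraries, with a log2 fold change of -0.11 (SE 0.366), and without tlr2+/+ library 1 the value was 0.28.

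The simple epithelial pair krt8 and krt18 was represented by krt8, krt18a.1 and krt18b. The main krt8 entry ENSDARG00000058358 had 414, 256 and 355 CPM in tlr2-/- libraries and 511, 504 and 363 CPM in tlr2+/+ libraries, with a log2 fold change of -0.43 (SE 0.356). The entry ENSDARG00000109279 had 7.12, 17.02 and 4.09 CPM in tlr2-/- libraries and 101, 9.25 and 24.7 CPM in tlr2+/+ libraries, with a log2 fold change of -2.26 (SE 0.87), and without tlr2+/+ library 1 its log2 fold change was -0.72. As for krt5, this entry was highest in tlr2+/+ library 1 and overlapped between genotypes. Summed, krt8 had 421, 273 and 359 CPM in tlr2-/- libraries and 612, 513 and 387 CPM in tlr2+/+ libraries, a log2 fold change of -0.52 (SE 0.358). krt18a.1 had 67.5, 67.8 and 60.9 CPM in tlr2-/- libraries and 183, 52.2 and 77.2 CPM in tlr2+/+ libraries, with a log2 fold change of -0.67 (SE 0.437).

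krt18b was low, and its entries moved apart. The entry ENSDARG00000028618 had 4.64, 5.64 and 3.23 CPM in tlr2-/- libraries and 1.801, 0 and 1.32 CPM in tlr2+/+ libraries, with a log2 fold change of 2.102 (SE 1.68), higher in all tlr2-/- libraries (background of non-overlap in this direction 6.87%). The entry ENSDARG00000111300 had 3.91, 1.95 and 3.598 CPM in tlr2-/- libraries and 12.2, 0 and 11.5 CPM in tlr2+/+ libraries, with a log2 fold change of -1.32 (SE 1.39). Wild type library 2 had 0 reads of both, which allows up to 0.166 CPM for counting error only. Summed, krt18b had a log2 fold change of -0.22 (SE 1.26), so the direction of the gene was not determined.

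krt97 was the only keratin of at least 100 TPM, other than krtt1c19e, with a positive log2 fold change. It had 286, 508 and 245 CPM in tlr2-/- libraries and 325, 101 and 224 CPM in tlr2+/+ libraries, with a log2 fold change of 0.67 (SE 0.457). Wild type library 2 was the lowest, and tlr2+/+ library 1 lay within the mutant range. krt96, its neighbour in the genome, had 7.997, 13.8 and 3.11 CPM in tlr2-/- libraries and 0, 0.277 and 3.46 CPM in tlr2+/+ libraries, with a log2 fold change of 2.72 (SE 1.53). Library 1 of tlr2+/+ had 0 reads of krt96, which allows up to 0.1 CPM for counting error only, and tlr2+/+ library 3 lay within the mutant range.

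Of the remaining entries of low level, krt94 had 21.97, 17.7 and 26.4 CPM in tlr2-/- libraries and 54.9, 36.8 and 23.6 CPM in tlr2+/+ libraries, with a log2 fold change of -0.81 (SE 0.414). krt1-c5 had 7.22, 8.96 and 12.3 CPM in tlr2-/- libraries and 29.2, 8.198 and 7.16 CPM in tlr2+/+ libraries and krt1-19d had 59.3, 103 and 73.4 CPM in tlr2-/- libraries and 173, 55.4 and 38.5 CPM in tlr2+/+ libraries. In both, the wild type mean was carried by library 1. krt222, krt93 and krt99 had SEs of at least 2.05 for their log2 fold changes, and krt98 and krt18a.2 did not pass the filter on low counts.

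krtcap2, which is no keratin, had the smallest unadjusted p of the 26 entries tested. It had 26.7, 34.8 and 26.8 CPM in tlr2-/- libraries and 14.1, 7.31 and 11.5 CPM in tlr2+/+ libraries, with a log2 fold change of 1.42 (SE 0.439). All tlr2-/- libraries lay above all tlr2+/+ libraries, and the log2 fold change ran between 1.198 and 1.75 when each library was left out in turn. Its adjusted p was 0.9998 in edgeR. krtcap2 is on the study's own list of regulated genes, which was made from these libraries, so it is no independent evidence.

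**Figure D3:**
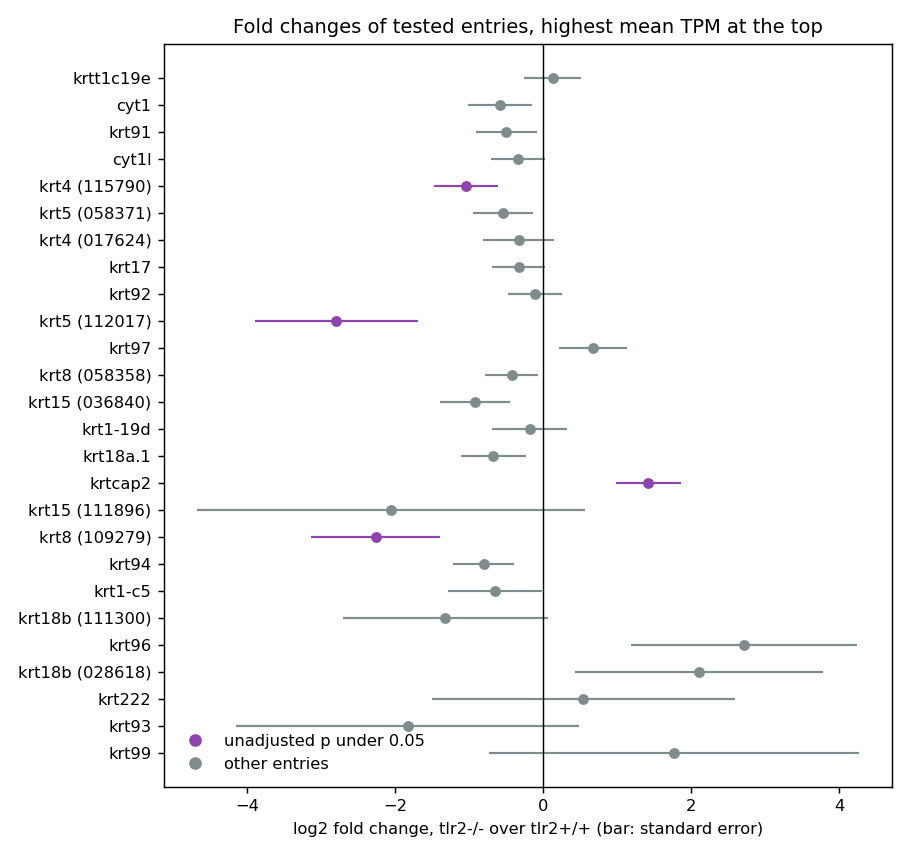
Log2 fold change of tlr2-/- over tlr2+/+ (x axis) of the 26 entries tested (y axis, highest mean TPM at the top, last 6 digits of the entry in brackets where a symbol has several), with its standard error. Purple marks an unadjusted p under 0.05. Entries of high level lie mostly left of 0 with short bars, from -1.04 to 0.13 among the first 9, and krtcap2 lies at 1.42.

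On the TPM scale more entries separated. The krt8 entry ENSDARG00000058358, krt18a.1 and krt94 were lower in all tlr2-/- libraries, 3 of 25 keratin entries tested, where 12.9% of all genes were lower without overlap on this scale. The krt18b entry ENSDARG00000028618 was higher, where the background was 2.53%. krt18a.1 had 33.2, 26.5 and 26.9 TPM in tlr2-/- libraries and 96.4, 42.4 and 76.7 TPM in tlr2+/+ libraries and krt94 had 9.44, 6.07 and 10.1 TPM in tlr2-/- libraries and 24.9, 15.1 and 20.05 TPM in tlr2+/+ libraries. Of the 42.4 TPM of krt18a.1 in tlr2+/+ library 2, 22.6 TPM came from a transcript of 596 nt with 0 reads in every tlr2-/- library. The krt18a.1 transcript of 1749 nt had 19.8 TPM there, below every tlr2-/- library, so the separation of krt18a.1 rested on the shorter transcript. The share of 3 in 25 was close to the background.

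The split of reads between entries of a symbol varied widely among libraries. The entry ENSDARG00000112017 took 3.55, 15.2 and 1.54% in tlr2-/- libraries and 41.99, 10.7 and 9.07% in tlr2+/+ libraries of krt5 reads. The entry ENSDARG00000115790 took 32.1, 27.4 and 37.7% in tlr2-/- libraries and 33.99, 43.9 and 59.2% in tlr2+/+ libraries of krt4 reads, and ENSDARG00000109279 took 1.69, 6.23 and 1.14% in tlr2-/- libraries and 16.5, 1.802 and 6.37% in tlr2+/+ libraries of krt8 reads. These overlapped between genotypes. The krt15 entry ENSDARG00000111896 took 18.4, 0 and 21.5% in tlr2-/- libraries and 21.9, 67.3 and 0% in tlr2+/+ libraries of its symbol's reads. The krt18b entry ENSDARG00000111300 took 45.7%, 25.7% and 52.7% of its symbol's reads in tlr2-/- libraries, against 87.1% and 89.7% in tlr2+/+ libraries 1 and 3, while library 2 had no krt18b read.

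**Figure D4:**
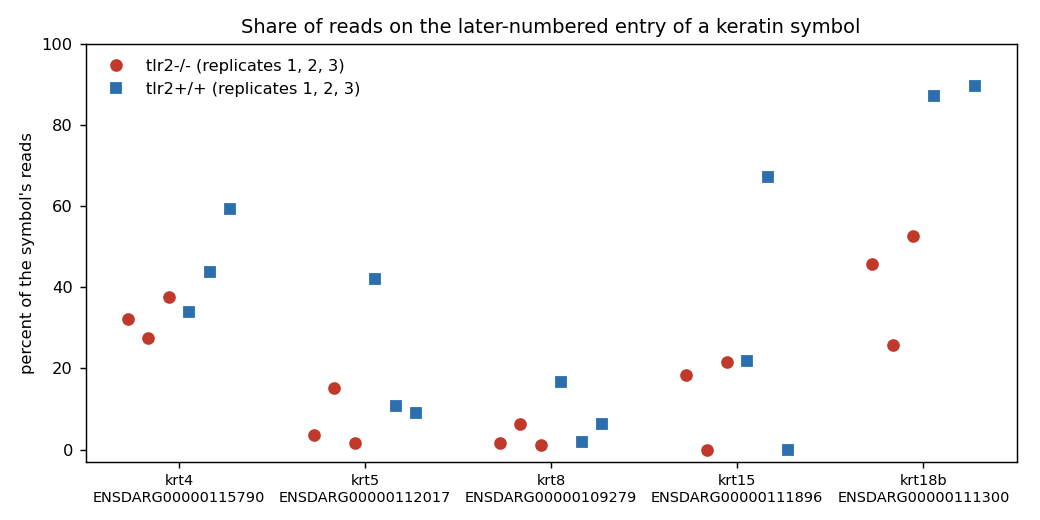
Percent of a symbol's reads (y axis) assigned to the later-numbered of its entries (x axis) in each library. Red circles are tlr2-/- and blue squares tlr2+/+, in the order of the replicate numbers. For krt5 the value of tlr2+/+ library 1 is 42.0%, against 1.54% to 15.2% in the other 5 libraries.

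The 3 type II keratins krt4, krt5 and krt8 were compared with all keratins. As a share of keratin TPM, they held 22.6, 17.9 and 19.2% in tlr2-/- libraries and 27.7, 21.5 and 26.9% in tlr2+/+ libraries, a difference of -5.48 percentage points between the means. The 21.5% of tlr2+/+ library 2 lay within the mutant range, whose highest value was 22.6% in tlr2-/- library 1. The other keratins could not be sorted by type from protein sequence here.

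By position in the RefSeq order of GRCz12tu genes, used for order only, the joined symbols form 6 neighbourhoods. The largest (krt1-19d, krtt1c19e, krt92, cyt1l, cyt1, krt17 and krt91, side by side) held 73.3, 76.7 and 77.3% in tlr2-/- libraries and 68.4, 74.9 and 69.97% in tlr2+/+ libraries of keratin TPM. Most keratin TPM of every library thus came from this group. The group of krt5, krt8, krt18a.1 and krt18a.2 held 10.7, 7.93 and 8.54% in tlr2-/- libraries and 13.4, 11.8 and 12.4% in tlr2+/+ libraries. The group of krt222, krt97 and krt96 held 2.51, 4.13 and 1.94% in tlr2-/- libraries and 1.46, 0.984 and 1.403% in tlr2+/+ libraries. In CPM, each tested entry of these 2 groups overlapped between genotypes. krt4 and krt18b held 12.5, 10.5 and 11.2% in tlr2-/- libraries and 15.1, 10.5 and 15.03% in tlr2+/+ libraries, and krt93, krt94, krt98, krt15 and krt99 held 0.941, 0.6999 and 0.887% in tlr2-/- libraries and 1.43, 1.72 and 1.11% in tlr2+/+ libraries. krt1-c5 stood alone. The shares of the groups with krt5, with krt222 and with krt93 did not overlap between genotypes, and those of the other groups did. In CPM, each tested entry of the group with krt93 overlapped too, while krt15 with its entries summed did not. No background of non-overlap was taken for such shares, and they were described without a test.

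The wild type libraries also varied more for keratins. Among the 18 entries of at least 10 TPM, the SD of CPM was larger in tlr2+/+ for 16. The median coefficient of variation was 18.4% in tlr2-/- and 45.5% in tlr2+/+. Over the 3730 genes of at least 10 TPM, the median was 20.2% in tlr2-/- and 40.4% in tlr2+/+, and the SD was larger in tlr2+/+ for 78.2%. The larger wild type spread was thus found over all genes as well.

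Genes of the skin other than keratins, from lists written from general knowledge, had medians nearer to 0 than the keratins in the fit of all libraries. The keratin median was 0.12 without tlr2+/+ library 1, and medians of the lists were not taken without that library. The lists were also not matched to the keratins in level, and keratins under 10 TPM had a median of 0.54. No entry of the 10 lists was called in edgeR, nor by DESeq2 or limma, over 135 distinct entries tested. Superficial epidermis markers had 9 log2 fold changes below 0, 8 above 0 and a median of -0.06, and their summed level was 291, 379.9 and 250.4 CPM in tlr2-/- libraries and 456, 216 and 229.7 CPM in tlr2+/+ libraries. Basal epidermis markers had 6 negative and 7 positive values and a median of 0.09, with 310.2, 204 and 242 CPM in tlr2-/- libraries and 331, 187 and 393 CPM in tlr2+/+ libraries. Both sums overlapped between genotypes. The largest part of the basal sum was col17a1a, with 174, 80.6 and 124 CPM in tlr2-/- libraries and 207, 84.4 and 228 CPM in tlr2+/+ libraries. The desmosome and plakin list, the junctions to which keratin filaments attach, had a median of -0.12 over 14 entries, and the epidermal transcription factors of 0.08 over 12. No entry of these 4 lists had an unadjusted p under 0.05.

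Epithelial adhesion genes had 12 negative and 5 positive values and a median of -0.16. ctnna1, the alpha-catenin that links cadherins to actin, had 21.8, 11.1 and 18.3 CPM in tlr2-/- libraries and 36.7, 47.5 and 27.7 CPM in tlr2+/+ libraries, with a log2 fold change of -1.13 (SE 0.4197), and the genotypes did not overlap (background 6.2% lower and 6.87% higher). tjp1b, a tight junction protein of the same list, was higher without overlap, with 87.3, 90.00 and 82.4 CPM in tlr2-/- libraries and 60.5, 39.1 and 70.2 CPM in tlr2+/+ libraries and a log2 fold change of 0.61 (SE 0.3399). epcam, an epithelial adhesion molecule, had 42.9, 29.2 and 36.2 CPM in tlr2-/- libraries and 107, 27.5 and 60.04 CPM in tlr2+/+ libraries, with a log2 fold change of -0.85 (SE 0.458). Of the intermediate filament genes that are not keratins, 6 were negative and 13 positive, with a median of 0.38. lmnb1, which encodes a nuclear lamin, had 21.5, 18.8 and 44.7 CPM in tlr2-/- libraries and 48.9, 51.5 and 68.9 CPM in tlr2+/+ libraries, with a log2 fold change of -0.99 (SE 0.413), lower without overlap. lmnb2, another lamin gene, had 21.05, 11.9 and 14.1 CPM in tlr2-/- libraries and 5.74, 2.603 and 11.4 CPM in tlr2+/+ libraries, with a log2 fold change of 1.25 (SE 0.635), higher without overlap. In all, the adhesion list had 1 entry lower and 1 higher without overlap, and the filament list 3 lower and 2 higher.

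Markers of other tissues that use keratins were read beside them, and their part in the results was not tested. Intestine markers had a median of 0.12 and liver markers of 0.21, notochord markers, without krt8 and krt18a.1, of 0.23, and ionocyte and mucous cell markers of 0.46. Their summed levels were 2117, 2163 and 1598 CPM in tlr2-/- libraries and 1999, 1433 and 1266 CPM in tlr2+/+ libraries for intestine and 2389.9, 3643 and 1315 CPM in tlr2-/- libraries and 2958, 2243 and 1004 CPM in tlr2+/+ libraries for liver. The ionocyte and mucous cell list had 693, 628 and 585 CPM in tlr2-/- libraries and 786, 636 and 357 CPM in tlr2+/+ libraries. Single genes made up much of these sums. In the ionocyte list, atp6v1aa had 422, 355 and 299 CPM in tlr2-/- libraries and 471, 443 and 199 CPM in tlr2+/+ libraries. For intestine, apoa1a had 1211, 1194 and 1018 CPM against 1239, 642 and 512 CPM. For liver, apoa2 had 1584, 2460.5 and 783 CPM against 2028, 1341 and 479 CPM. At an unadjusted p under 0.05, 1 intestine, 2 liver and 1 ionocyte or mucous cell entry passed, where 3.73% of all genes did. chia.1, apobb.1 and atp1b1b were higher and tfa was lower. The lists share tp63, ppl, evpla, evplb, agr2, grhl1, grhl3, foxi3a and foxi3b between them.

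**Figure D5:**
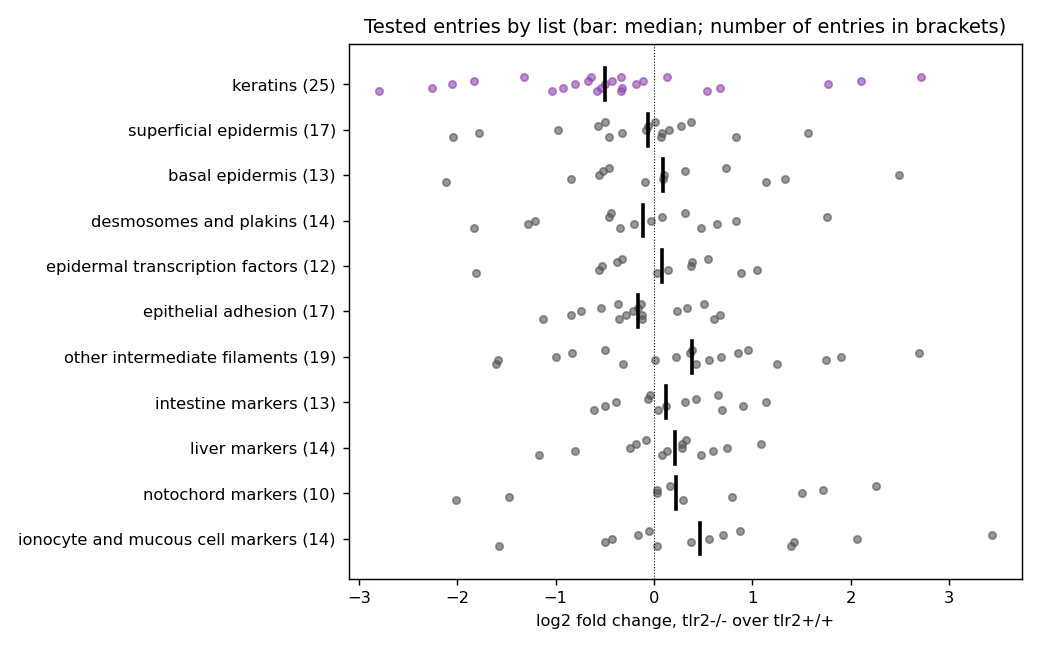
Log2 fold change of tlr2-/- over tlr2+/+ (x axis) for tested entries of the keratins, without krtcap2, and of 10 other lists (y axis). Dots are entries and black bars are medians, at -0.50 for the keratins and between -0.16 and 0.46 for the other lists.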

How the data were processed

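Poly(A) libraries of 5 dpf larvae, 3 biological replicates for each genotype, were read at 150 nt. The authors made the estimated counts and TPM per transcript with Salmon v1.2.1 on GRCz11. The mean signal in the deposited gene table is a mean of counts over normalization factors of DESeq2 v1.24.0. Its log2 fold changes and s-values, the authors' own comparison, were not used. Neither Salmon's options nor the annotation release is given in the sources used here.

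Transcript rows were joined to genes by recomputing the deposited mean to a relative tolerance of 1e-12, which joined 21079 of 23956 genes and at least 99.9% of reads. Estimated counts were summed per gene, rounded, filtered with the default of edgeR 4.0.16, scaled with TMM and fitted with its robust quasi-likelihood test on genotype alone. p-values were Benjamini-Hochberg adjusted over 16776 genes and called under 0.05. They weigh the difference between genotypes against the spread between these libraries, and not against that between single larvae. SD is over 3 libraries. SEs were obtained from the F statistic as the absolute log2 fold change over its root.

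Full values are given for the 12 keratin entries of highest mean TPM, those with an unadjusted p under 0.05 and those whose genotypes do not overlap, and for up to 4 members of each list with the smallest p, of which some are named. Values of some further keratin entries, of summed symbols and of the marker icn are given outside this rule. Members and lists were chosen with earlier results of these data known. Alternatives were RLE scaling, other filters, length offsets, summed entries, the replicate block, leaving out each library, DESeq2 1.42.0, and limma 3.58.1 on TPM. Wild type library 3 alone and the alternatives for summed krt15 were chosen after seeing the data, and a lone library is assumed to vary like the others. The fit was also run on simulated counts, with a much smaller spread than these libraries and the same spread in both genotypes. That run therefore does not show how the fit performs on these data. Software was R 4.3.3 and Python 3.11.15 (matplotlib 3.10.9, pandas 2.3.3, numpy 2.4.6), random seed 7. Names and gene order come from RefSeq GRCz12tu.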

Additional observations from a re-analysis of the deposited data

How the results depend on the processing

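The count of keratin entries called in edgeR was 0 under all alternatives except wild type library 3 alone against the mutant libraries, chosen after seeing the data, where it was 1 (krt4 ENSDARG00000115790, log2 fold change -1.29). That fit called 758 genes in all, against 1 in the main comparison, 30 by DESeq2, 7 by limma on log2(TPM + 1) and 67 with the replicate block. The median log2 fold change of the keratin entries ran between -0.67 and 0.12 when each library was left out, and it was 0.12, positive, without wild type library 1; the cause was not tested. It was -0.0041 with wild type library 3 alone, and -0.80 and -0.82 on the log2(TPM + 1) and log2(TPM + 0.1) scales. With the replicate number as a block the median was -0.31 and no keratin was called. Deviations of libraries with the same number correlated by 0.00184, 0.0438 and 0.0566. Correlations between libraries of different number were not taken beside them, so whether the numbers pair the libraries was not settled. The log2 ratio of the keratin share of TPM ran between -1.32 and -0.57 without each library, and this share was not computed with TMM factors. The krt4, krt5 and krt8 share difference ran between -7.42 and -4.32 percentage points. Single entries changed sign as follows, and the cause was not tested. On log2(TPM + 1) and log2(TPM + 0.1), krtt1c19e was at -0.32 in both. Without wild type library 1, krt4 ENSDARG00000017624 was at 0.52 and krt92 at 0.28. With wild type library 3 alone, these were at 0.31 and 0.48, and krt8 ENSDARG00000058358 was at 0.0796. Over the libraries left out in turn, krt92 ran between -0.27 and 0.28. With the entries summed, krt18b was at -0.22. The planned share of type I keratins was not run because no protein was used to type the entries. Low counts limit krt222, krt93 and krt99, and how reads were divided between the entries of krt4, krt5, krt8, krt15 and krt18b was not measured.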
